A study of Mus musculus with 2 samples.

Results

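Long non-coding genes that carry only a clone or model number as a name were examined in RNA of the chromatin fraction of mouse bone marrow-derived macrophages. Of 7153 autosomal genes of the GENCODE M21 classes lincRNA (long RNA between coding genes) and antisense (long RNA overlapping a gene on the other strand) with a symbol of the form Gm plus digits or ending in Rik, 103 were selected on their own counts: each had an expected count of at least 200 in both gene tables. An expected count is the estimated number of reads of a gene after reads that match several genes are shared out. The genes Gm26917 and Gm42418 had been left out by the same rule. The 103 members were 56 lincRNA and 47 antisense genes, 23 of them with a Rik symbol, among 55536 annotated genes in all. Their high counts are therefore a property of the choice and are given as a description. No test is made on them.

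The study sequenced ribosomal RNA-depleted total RNA from chromatin of C57BL/6J macrophages, which are primary cells grown out of marrow, at 0 minutes of lipid A (100 ng/ml), the membrane anchor of bacterial endotoxin that Toll-like receptor 4 senses. There were 2 biological replicates of this 1 group, with an RNA input of 250 ng in replicate 1 and of 500 ng in replicate 2 and fragments of 250 to 400 bases. The labels give both replicates 1 donor entry, so the spread between them may be technical, and sex and age were not recorded. With a single group there is no comparison between conditions.

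Chromatin RNA holds transcripts that are still tied to their template, with introns that are not yet removed, and long non-coding RNAs that stay in the nucleus. Long non-coding genes are commonly grouped by where they lie: apart from coding genes, inside a coding gene on either strand, or head to head with a coding gene from whose promoter region they run in the other direction. A few carry microRNAs in their transcripts. For most numbered genes no function is established, so the members are ordered here by position.

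The libraries held 10933708 and 14168886 expected counts on annotated genes. The members took 0.518% of them in replicate 1 and 0.564% in replicate 2. Among autosomal lincRNA and antisense genes without copies of ribosomal DNA, Malat1, an abundant RNA of nuclear speckles, held 76.0% and 76.5% of the counts, Neat1, the scaffold of paraspeckles, held 11.8% in both, and the 103 members together held 4.48% and 4.58%. All 8 macrophage marker genes reached 1 TPM in both replicates (mean levels of 8.23 to 173 TPM). Of 30 markers of 8 other cell types, 3 did, 1 erythroid and 2 megakaryocyte, and 16 had no count in either replicate. The part of other cell types in the members' levels was not tested.

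Levels are given in TPM, a share of transcripts that corrects for length. The median member stood at 14.9 ± 0.552 TPM (SD of the medians of 2 replicates, n = 2), with quartiles of 9.70 and 25.3 TPM. Mean levels ran from 3.40 TPM (Gm4117) to 95.3 TPM (Gm36161), a 28.1-fold range, and 76 members reached 10 TPM, 34 reached 20 TPM and 5 reached 50 TPM. The median member exceeded 81.3% of the 22028 protein-coding genes, and Gm36161 exceeded 98.1% of them. These ranks follow in part from the count minimum, which the coding genes did not have to meet. The 5397 protein-coding genes that met it in both replicates had a median of 23.7 TPM. The 21 named autosomal lincRNA and antisense genes that met it had a median of 30.8 TPM. Both medians were above that of the members. Counts were spread over many genes, since the 10 highest by count held 27.7% and 29.6% of the members' counts. Members were long in exonic sequence, with a median of 3305 bases against 932 in the 7050 other candidates, of which 4725 (67.0%) had no count in either replicate. Counts rise with length, so a rule on counts favours long genes by itself. The members lay on 19 autosomes, with 11 each on chromosomes 5 and 8.

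**Figure D1:**
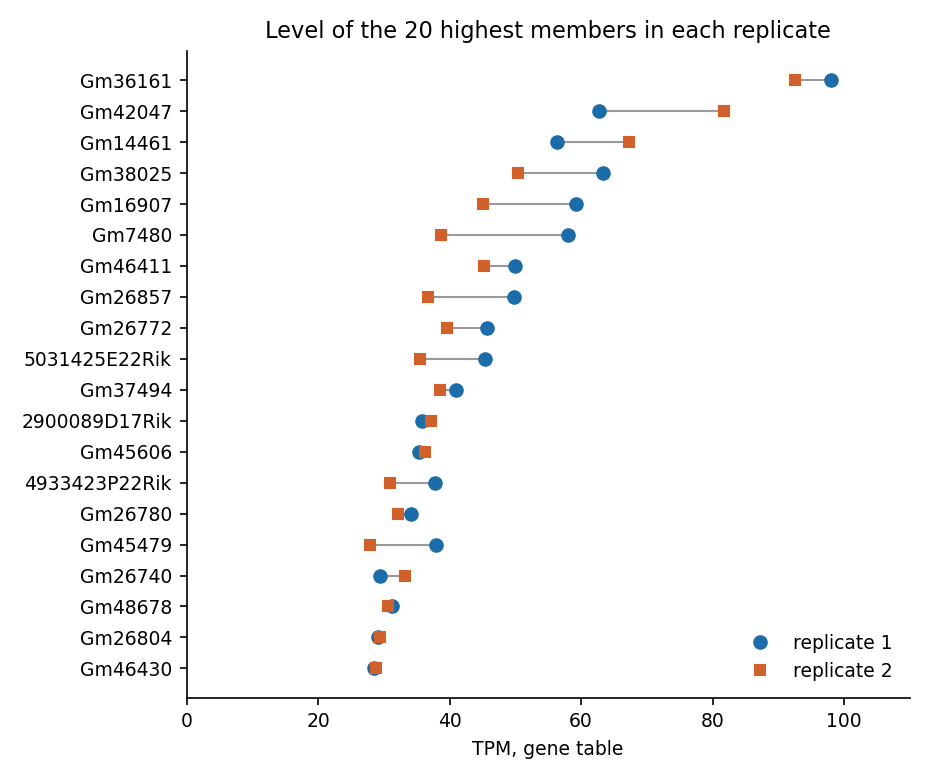
TPM of the 20 members with the highest mean level, 1 row per gene, with a circle for replicate 1 and a square for replicate 2 joined by a line. Gm36161 stands first at 98.05 and 92.52 TPM, and the lowest row, Gm46430, lies at 28.57 and 28.88 TPM.

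The cut on counts fell within a dense stretch of genes. Just inside it were Gm26764 with 206 and 317 counts, Gm45515 with 211.50 and 224.18, Gm26899 with 212.19 and 258.90 and A530017D24Rik with 213 and 362. Just outside were D730003I15Rik with 199 and 249 counts, Gm16262 with 198 and 315, Gm19667 with 198 and 245 and Gm44949 with 196 and 250. The genes on both sides of the line had like levels, 6.02 to 13.5 TPM inside and 5.64 to 14.5 TPM outside.

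Of the 4 highest members, 3 lay apart from protein-coding genes. In all, 26 of the 103 members (25.2%) touched no protein-coding gene, with a median of 18.6 TPM, whereas 4362 of the 7050 other candidates (61.9%) did so. Gm36161 (ENSMUSG00000114608.1, mm10 chromosome 13, 120010390 to 120018931, plus strand, 4 exons) held 98.05 TPM in replicate 1 and 92.52 TPM in replicate 2, the highest level in both. Its exons share 165 bases, 10.9% of their length, with the processed pseudogene Gm21370 on the other strand, which was given 502.68 and 616.29 counts of its own. Gm14461 (ENSMUSG00000054510.5, chromosome 2, 78237547 to 78302230, plus strand) held 56.40 and 67.33 TPM, and no protein-coding gene lay closer than Cwc22, a splicing factor gene 291172 bases away. Gm38025 (chromosome 3, 31341012 to 31345280, plus strand) held 63.29 and 50.48 TPM, 30634 bases from Slc7a14, which was at 0.01 and 0.02 TPM. Gm36161 itself lay 7508 bases from Gm36079, a coding gene model at 42.40 and 49.15 TPM. All 3 genes were above their nearest coding gene in both replicates, and Gm14461 was the only one of them that was higher in replicate 2.

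Promoter sequences were looked up in RefSeq (build GRCm38.p6), which held an entry for 22 members by symbol. In 16 the RefSeq start lay within 250 bases of the GENCODE start. The windows, 250 bases before to 50 bases after the start, are shown for a pair of highly expressed intergenic members and, further on, for a pair of members that start beside a coding gene. Capitals mark matches, on either strand, to 7 motifs. Of the motifs of macrophage factors, the PU.1 core was spelled GAGGAAGT, the C/EBP site TTGCNNAA, the AP-1 site TGANTCA and the NF-kB site GGGANNTCC. Of the general promoter motifs, the TATA box was spelled as TATAAA, the NF-Y site as CCAAT, and the GC box of Sp and KLF factors as GGGCGG. The motifs can overlap. Gm36161 is at chr13:120010092-120010391 on the plus strand (its RefSeq start 48 bases before that of GENCODE) and Gm14461 at chr2:78237297-78237596 on the plus strand.
Gm36161: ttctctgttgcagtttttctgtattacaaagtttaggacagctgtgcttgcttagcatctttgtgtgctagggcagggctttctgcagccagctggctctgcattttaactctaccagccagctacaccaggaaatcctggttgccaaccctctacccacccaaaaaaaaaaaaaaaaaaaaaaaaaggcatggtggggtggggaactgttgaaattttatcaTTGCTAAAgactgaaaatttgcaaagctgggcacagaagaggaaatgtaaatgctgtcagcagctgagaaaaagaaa
Gm14461: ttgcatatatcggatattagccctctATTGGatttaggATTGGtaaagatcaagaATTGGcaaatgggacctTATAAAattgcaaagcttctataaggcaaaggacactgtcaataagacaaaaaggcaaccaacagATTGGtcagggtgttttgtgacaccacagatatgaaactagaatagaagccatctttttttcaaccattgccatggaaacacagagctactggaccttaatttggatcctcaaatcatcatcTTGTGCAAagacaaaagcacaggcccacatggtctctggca
The Gm36161 window has 42.3% G and C and no CpG, and its only match is a C/EBP motif that begins 27 bases before the start. The Gm14461 window has 39.7% G and C and 1 CpG, with 4 CCAAT matches on the reverse strand, a TATA box 178 bases before the start and a C/EBP motif that begins at base 10 after it. A match shows only that the letters are present.

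Each motif was found in 5 or fewer of the 16 windows, too few to set shares against the background. A C/EBP match was in 3 windows and is in 10.8% of all 32851 RefSeq promoters. A PU.1 core was in 2, against 3.20% of all promoters. CCAAT was in 5 (37.4% of all), the GC box in 4 (35.7%), the TATA box in 1 (13.6%), AP-1 in 1 (7.81%) and NF-kB in none (4.30%). The median G and C content was 51.8% in the 16 windows and 52.7% in all.

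Most members lay inside or across a protein-coding gene. The bodies of 77 members (74.8%) overlapped at least 1 protein-coding gene, against 38.1% of the other candidates. The overlap was on the opposite strand in 70 members (68.0%), against 36.9% of the other candidates. It was on the same strand in 10 (9.71%), against 2.10% (3 members had both). By class, 31 of the 56 member lincRNA genes (55.4%) overlapped a protein-coding gene, against 8.99% of the other lincRNA genes. Antisense genes differed little, with 46 of 47 members (97.9%) against 93.3% of the others. The exonic bases of the median member lay 78.6% within introns of coding genes, and in 60 members (58.3%) at least 50% did, against 22.4% of the other candidates. The classes differed, with a median of 0 for member lincRNA genes and 94.3% for member antisense genes. At least 50% lay in introns in 37.5% of member lincRNA genes, against 4.42% of the other lincRNA genes. For antisense genes the shares were 83.0% and 56.5%. These shares describe genes that were chosen by level, and no test was made of them.

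The overlapped genes were themselves strongly transcribed. For each of the 77 members the coding gene that covers the largest part of its exons was taken as its host. The hosts, 76 distinct genes, had a median of 38.9 TPM, against 1.39 TPM for those of the 2688 other candidates with an overlap. Of the 77 hosts, 63 reached 10 TPM in both replicates, which 5205 of the 22028 protein-coding genes did (23.6%). The host was higher than the member in both replicates in 57 cases and lower in both in 15.

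**Figure D2:**
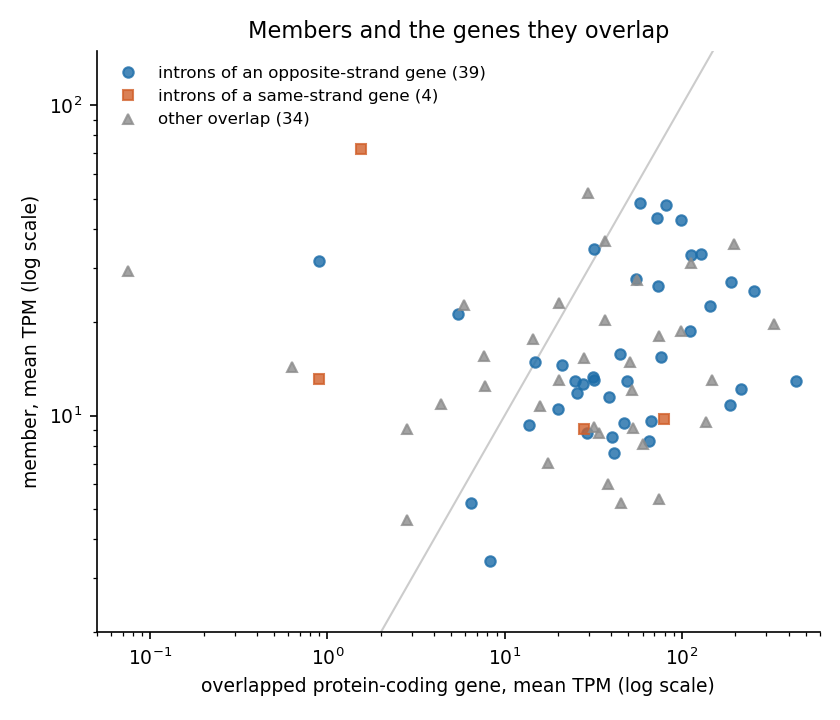
Mean TPM of each of the 77 members that overlap a protein-coding gene (vertical, log scale) against that of the overlapped gene (horizontal, log scale), by placement, with a grey line where both are equal. Most points lie to the right of the line, and Gm42047 at 72.2 TPM stands above a host at 1.55 TPM.

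In 39 members at least 90% of the exonic bases lay within introns of a coding gene on the opposite strand. Gm7480 (chromosome 14, 22032086 to 22036103, minus strand) lies in Lrmda, a leucine-rich repeat gene, and held 58.05 and 38.71 TPM beside 57.43 and 58.76 TPM of its host. Gm46411 (chromosome 13, 37793382 to 37799790, minus strand) lies in Rreb1, a zinc finger transcription factor gene, and held 49.98 and 45.18 TPM beside 92.47 and 69.71 TPM. Gm26857 (chromosome 4, 3678117 to 3689548, minus strand) lies in Lyn, a Src-family kinase gene of myeloid cells, and held 49.74 and 36.76 TPM beside 74.47 and 71.01 TPM. In these 3 the member was below the host in replicate 2, and in replicate 1 all but Gm7480 were.

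Further members of this kind stood at varied levels beside their hosts. Gm26772 in Zmiz1, a transcriptional co-regulator, held 45.68 and 39.64 TPM beside 104.93 and 93.24 TPM. Gm2245 lies in Fyb, an adaptor of immune cell adhesion, whose 460.96 and 423.09 TPM were the highest of any host, and held 13.66 and 12.18 TPM itself. 4933423P22Rik in the receptor phosphatase gene Ptprj held 37.86 and 31.02 TPM beside 32.80 and 30.86 TPM, and Gm15356 in March1, a ubiquitin ligase gene that controls surface MHC class II, held 16.64 and 13.09 TPM beside 15.21 and 14.56 TPM. The last 2 were therefore about as high as their hosts, whereas Gm2245 was far below its own.

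Candidates of any count were then sorted by the level of the coding gene around them, a sorting that does not use the member's own level. Among candidates within introns of an opposite-strand gene, 1 of 456 (0.219%) was a member where the host was under 1 TPM, 3 of 195 (1.54%) at 1 to 10 TPM, 17 of 207 (8.21%) at 10 to 50 TPM and 18 of 81 (22.2%) at 50 TPM or more. The median candidate level at the same steps was 0, 0.540, 2.85 and 7.26 TPM. Outside coding genes but within 5 kb of one, the shares were 0 of 352, 6 of 211 (2.84%), 7 of 180 (3.89%) and 2 of 46 (4.35%), with medians of 0 to 0.735 TPM. Further than 5 kb from any coding gene, 11 of 3599 candidates (0.306%) were members. Over 473 candidate and host pairs on opposite strands with both above 0, log2 TPM had a Pearson correlation of 0.62, a description over genes that share 2 libraries. It was 0.27 over the 39 members of this placement and 0.07 over all 77 members with a host. Members were chosen by count, which narrows the range of their levels, so these values cannot be set against 0.62. The replicate log2 ratios of the 473 pairs, which had no count minimum and a median candidate level of 1.76 TPM, had a correlation of -0.06. That of the ratios was -0.08 over the 39 members, 0.30 over the 77 members and 0.52 over 23 candidates within same-strand introns. The last 2 sets include Gm42047, whose host was given 1 and 178 counts. Whether member and host vary together was not tested.

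**Figure D3:**
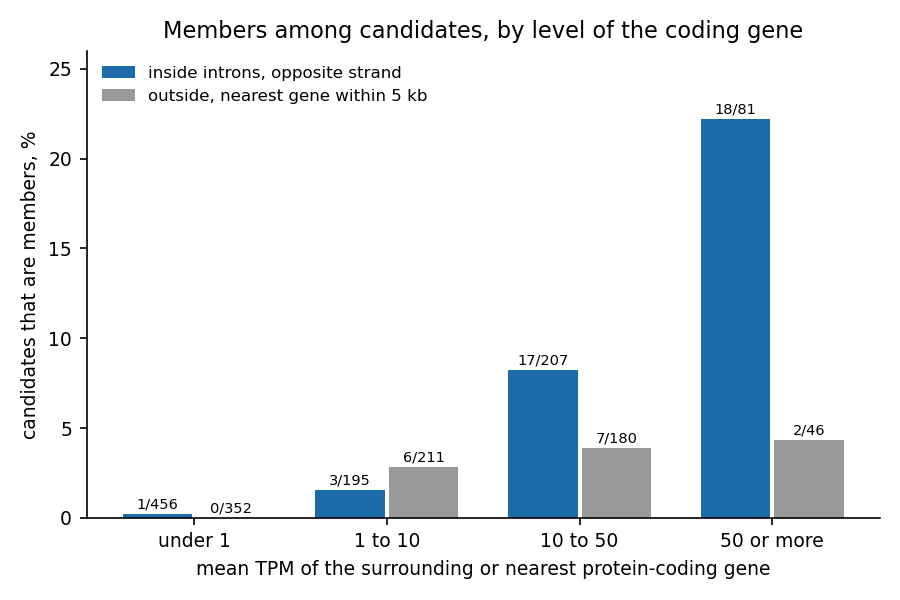
Share of candidates that are members (vertical, %) by the mean TPM of the protein-coding gene around them (blue, candidates within introns on the opposite strand) or nearest to them within 5 kb (grey, candidates outside coding genes), with members over candidates above each bar. The blue bars stand at 0.219% on the left and 22.2% on the right, and the highest grey bar is at 4.35%.

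Strand handling of the libraries is not stated in the labels, but the tables bear on how strand was used. Counts that are not whole (off by more than 0.005 in either replicate) can arise where a read was shared between genes. They were found in 5 of 47 members (10.6%) whose exons overlap no other gene and in 33 of 51 (64.7%) whose exons overlap only genes on the other strand. The same split held over all genes with at least 200 counts in both replicates, 271 of 3554 (7.63%) against 1086 of 1770 (61.4%). Whole counts were held by 18 of the 51 members, so such sharing did not show in each of them. Reads from the unspliced RNA of a host and reads from a member within its intron cannot be told apart on these values.

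Only 4 members lay within introns on the strand of their host. Gm42047 (ENSMUSG00000110631.1, chromosome 8, 121833247 to 121841178, plus strand) was next after Gm36161 by mean level, at 62.71 and 81.77 TPM, with Gm38025 above it in replicate 1. The coding gene around it is Gm20388, a long model (119910841 to 124345722) and was given 1 count in replicate 1 and 178 in replicate 2. Gm26890 in Clasrp, a regulator of splicing, held 10.07 and 9.46 TPM beside 85.57 and 73.60 TPM. Gm26514 in the transporter gene Slc35b3 held 9.97 and 8.11 TPM, and Gm26581 in Raet1e, which encodes a ligand of the NKG2D receptor, held 15.10 and 11.15 TPM beside a host at 1.04 and 0.76 TPM. The Raet1e gene also holds Gm26740 on the other strand, which at 29.46 and 33.30 TPM was the higher of the pair in both replicates. Both members were far above the coding gene that encloses them.

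Members that start beside a coding gene start were few. In 10 members (9.71%) the start lay within 1 kb of the start of a protein-coding gene on the opposite strand, against 11.4% of the other candidates, so this arrangement was no more common among members. The clearest pair was 5031425E22Rik (chromosome 5, 23382308 to 23434269, minus strand), 172 bases from Kmt2e, a chromatin regulator gene of the MLL family, with 45.41 and 35.47 TPM beside 46.40 and 51.59 TPM. E130307A14Rik, 111 bases from Rev3l, the catalytic subunit of DNA polymerase zeta, held 14.85 and 16.28 TPM beside 21.51 and 19.80 TPM. Gm4673, 106 bases from Usf2, a transcription factor gene, held 12.99 and 15.70 TPM beside 27.96 and 28.81 TPM. In each of these pairs the coding gene was higher in both replicates.

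In other pairs the order was the reverse or the gap was larger. Gm26606 starts 10 bases from Mycbp, a gene for a MYC-binding protein, and held 12.42 and 11.75 TPM beside 48.64 and 56.30 TPM. Gm10419 (21.12 and 24.50 TPM) was above Gm42517 (5.28 and 6.46 TPM), Gm17435 (11.61 and 10.17 TPM) above the transporter gene Slc35e1 (2.94 and 3.77 TPM), and Gm9917 (8.83 and 8.74 TPM) above the hyaluronidase gene Hyal2 (1.27 and 1.70 TPM). B930036N10Rik (10.24 and 7.83 TPM) was above Alyref2 (3.03 and 2.57 TPM), an RNA export factor gene. 0610038B21Rik held 19.27 and 18.40 TPM, 897 bases from Arhgap10 at 105.08 and 92.06 TPM. 4632404H12Rik held 5.37 and 7.92 TPM, 376 bases from the ubiquitin-conjugating enzyme gene Ube2q1 at 30.99 and 32.29 TPM. The coding partner was higher in 6 of the 10 pairs.

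The windows of 2 of these members are shown because they have the highest G and C content of the 3 that RefSeq places near the GENCODE start. Gm10419 is at chr5:108367687-108367986 on the plus strand (RefSeq start 168 bases downstream of that of GENCODE) and 4632404H12Rik at chr3:89773351-89773650 on the minus strand (160 bases upstream).
Gm10419: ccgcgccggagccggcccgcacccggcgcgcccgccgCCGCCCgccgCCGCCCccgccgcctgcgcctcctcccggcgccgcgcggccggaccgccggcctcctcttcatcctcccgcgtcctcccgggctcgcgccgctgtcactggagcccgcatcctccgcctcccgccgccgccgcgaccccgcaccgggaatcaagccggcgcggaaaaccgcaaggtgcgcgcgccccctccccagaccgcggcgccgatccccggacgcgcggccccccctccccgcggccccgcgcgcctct
4632404H12Rik: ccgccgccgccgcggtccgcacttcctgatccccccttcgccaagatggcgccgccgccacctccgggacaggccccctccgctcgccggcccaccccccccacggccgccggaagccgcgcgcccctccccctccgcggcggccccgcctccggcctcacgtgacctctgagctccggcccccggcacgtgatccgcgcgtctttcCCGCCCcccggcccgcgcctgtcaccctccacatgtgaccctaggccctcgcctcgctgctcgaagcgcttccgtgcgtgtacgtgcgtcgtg
The Gm10419 window has 84.0% G and C, 60 CpG and 2 GC boxes on the reverse strand. The 4632404H12Rik window has 77.3% G and C, 45 CpG and 1 GC box on the reverse strand. The third window, that of 0610038B21Rik, has 49.7% G and C, 4 CpG and no match to the 7 motifs. The median was 7 CpG both in the 16 member windows and in all RefSeq promoters.

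Few members lay near known macrophage response genes. The list held 236 genes of endotoxin sensing, NF-kB, interferon and other macrophage programs, of which 232 were found as protein-coding genes and 209 reached 1 TPM in both replicates. Within 50 kb of a listed gene were 4 members (3.88%), against 2.09% of the other candidates. Gm45479 (chromosome 8, 46763251 to 46764973, minus strand) lies within an intron of Irf2, an interferon regulatory factor gene, and held 37.96 and 27.96 TPM beside 120.86 and 102.68 TPM. Gm26982 lies on the same strand 19945 bases from Irak2, a kinase of Toll-like receptor signalling, with 24.80 and 21.18 TPM beside 43.28 and 28.90 TPM. Other coding genes are closer to Gm26982. It overlaps Ghrl on the other strand (19.07 and 21.40 TPM) and starts 3902 bases after the end of Tatdn2. Gm26792, on the same strand 22902 bases from Nfkb2, an NF-kB subunit gene, held 13.16 and 13.37 TPM beside 17.65 and 15.73 TPM. Its exonic bases lie 91.8% within introns of Cuedc2 on the other strand (32.48 and 30.91 TPM). It starts 4841 bases after the end of Fbxl15, so Nfkb2 is not its nearest coding gene. Gm26890 starts 3923 bases after the end of Relb, another NF-kB subunit gene at 10.83 and 10.31 TPM, within Clasrp. All 4 were below their listed neighbour in both replicates.

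There were 2 members with microRNA genes in their exons. A microRNA or small nucleolar RNA gene lay on the same strand within 1.94% of members and 1.25% of the other candidates. 6720427I07Rik (chromosome 13, minus strand) holds Mirlet7a-1, Mirlet7f-1 and Mirlet7d of the let-7 family, which represses growth-promoting messages. Gm37233 (chromosome 1, minus strand) holds Mir5103. The 5p arms of let-7 and miR-5103 are shown because the let-7 arms share a seed, from RefSeq with bases 2 to 8, the seed, in capitals.
mmu-let-7a-5p: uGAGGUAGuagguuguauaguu
mmu-let-7f-5p: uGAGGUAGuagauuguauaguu
mmu-let-7d-5p: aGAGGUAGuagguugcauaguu
mmu-miR-5103: uCAUCCGGgauccccugagg
The 3 let-7 arms share the seed GAGGUAG, and miR-5103 has CAUCCGG. The hairpins of let-7 also give 3p arms, which have other seeds. 6720427I07Rik held 14.65 and 15.22 TPM and Gm37233 held 19.65 and 18.93 TPM. The 4 microRNA genes were given no count in the gene table or the second transcript table, and reads over them could be assigned to the host. The 3 let-7 genes take up 89 to 103 bases of the host's exons, less than the fragments of 250 to 400 bases. The absence of counts therefore cannot show whether the microRNAs were made.

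Neighbouring members made up 3 pairs within 50 kb. Besides Gm26740 and Gm26581 in Raet1e, Gm38102 (20.45 and 17.53 TPM) lay 1236 bases before 4932422M17Rik (15.34 and 19.02 TPM) on the same strand of chromosome 5, and which was higher differed between replicates. On chromosome 9, Gm16185 (26.32 and 25.99 TPM) lay 11897 bases after Gm26767 (8.39 and 8.77 TPM).

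The replicates were close for all members. No member differed by 2-fold or more on TMM-scaled counts, that is, after the libraries were brought to a common scale. Of the 15193 genes whose mean count reached 10, 2.84% did, and among the 5962 genes with at least 200 counts in both replicates, the matched background, 0.0839% did, so a count of 0 is near what this background holds. The log2 ratio of replicate 2 over replicate 1 had a median of -0.06, an SD of 0.22 and a range of -0.60 to 0.61, beside a median of 0.01 and an SD of 0.20 in the matched background. The ratio was within the 95% counting interval of no difference in 57 members, and 46 lay outside it, 20 toward replicate 2 and 26 toward replicate 1. The same count was not made for the matched background, so it cannot be read as a trait of the members. The extremes were Gm16982 in Ap2a2, with 287.93 and 265.49 counts at a log2 ratio of -0.60, and 4632404H12Rik beside Ube2q1 at 0.61. Across members log2 TPM had a Pearson correlation of 0.969 between replicates, over genes that share 2 libraries.

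Agreement between the kinds of table was weaker. The second transcript table, built by matching reads to a transcript index, held 1.75 and 1.74 times the counts of the gene table over annotated genes, so counts were compared as shares of each total. The median ratio of second-table to gene-table share was 0.88 in members and 0.92 in the 5960 genes with at least 200 counts in both replicates and an entry in both tables. In 6 members the second-table share was at least 2-fold higher (0.973% of those 5960 genes), and in 2 it was at least 2-fold lower (0.168%). The Spearman correlation between tables over the 103 members was 0.794 for count shares and 0.866 for TPM, and 15 of the 20 highest members by gene-table TPM were among the 20 highest by second-table TPM.

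The largest excess in the second table was in Gm4117 (chromosome 13), which overlaps Xrcc4, a DNA repair gene, and Vcan on the other strand, with its exons wholly within introns. It had 321 and 346 counts in the gene table and 4074.7 and 5126.5 in the second, a share ratio of 7.82. Its exons cover 52997 bases, most of it 1 transcript of 52401 bases. Gm26809 (352.91 and 457.26 against 3640.3 and 5349.6 counts) had a ratio of 6.31 and Gm43042 (436 and 587 against 3895.4 and 5489.4) one of 5.24. Gm26869 followed at 2.88, Gm46430 at 2.58 and Gm26804 at 2.06. The excess was present in both replicates for each of the 6 genes. Gm43042 stood at 26.64 and 24.01 TPM in the gene table and at 100.96 and 147.57 TPM in the second table, where Gm36161 was below it at 52.94 and 73.33 TPM.

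The 2 lowest ratios were in members whose exons lie almost wholly within exons of a coding gene on the other strand. Gm26786 shares 6222 bases, 99.7% of its exonic length, with Zfp90, a zinc finger gene, and had 882.96 and 1103.49 counts in the gene table against 590.6 and 377.5 in the second, a ratio of 0.29. Gm26699 shares 2284 bases, also 99.7%, with the splicing factor gene Luc7l2, and had 424.65 and 615.36 against 139.6 and 524.5 counts, a ratio of 0.35. In the second table these 2 were also the members whose replicates differed by 2-fold or more, at log2 ratios of -1.12 and 1.43. Low ratios were not confined to such members, since Gm38025, whose exons overlap no other annotated gene, had a ratio of 0.57. Gm26899, with 81.7% of its exonic bases in exons of the other strand, had a ratio of 0.60. Gm26778, which lies 100% within exons of Kctd12, a potassium channel domain gene, had a ratio of 0.64. Gm26538, with 99.1% of its exonic bases in exons of the other strand, had 323 and 435 counts in the gene table and a ratio of 0.74, nearer the median of all members.

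**Figure D4:**
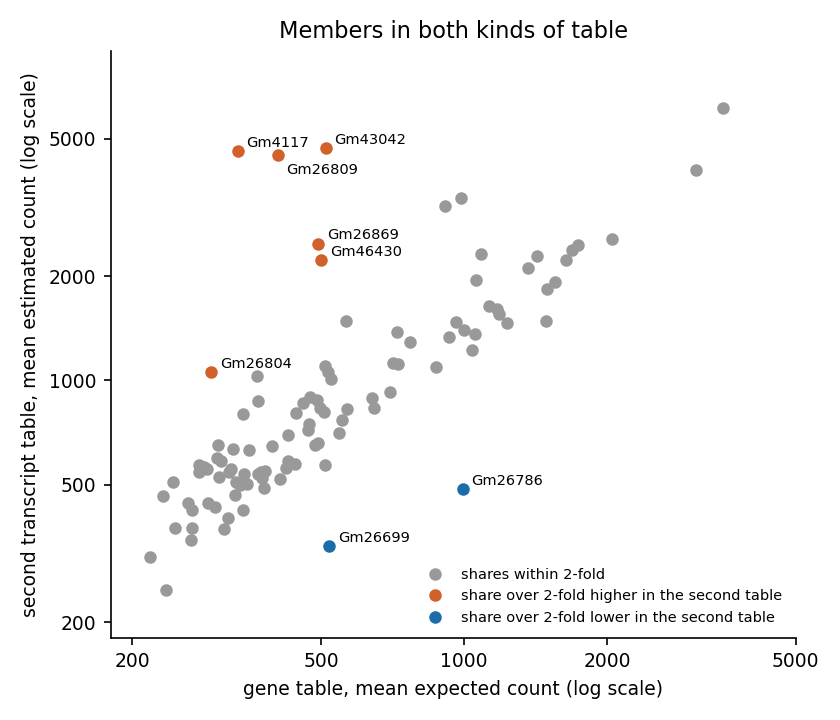
Mean count of each of the 103 members in the second transcript table (vertical, log scale) against the gene table (horizontal, log scale), with members whose share differs by 2-fold or more in colour and named. Gm4117, Gm26809 and Gm43042 stand far above the main band, and Gm26786 and Gm26699 below it.

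The same rule applied to the second table gives a much longer list. There 479 candidates had at least 200 counts in both replicates, among them 102 of the 103 members (all but Gm26699). The 377 others had a median of 9.50 counts in the gene table and 352.3 in the second, and 115 of them had no count in either gene table. Of the 262 with a gene-table count, 175 had a share at least 2-fold higher in the second table. The highest was Gm26905, with 35 and 65 counts in the gene table and 42855 and 51513.3 in the second. Of the 377, 173 (45.9%) overlapped a protein-coding gene.

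A single annotated transcript was present in 69 members (67.0%), against 78.3% of the other candidates, so members were single-transcript genes less often. The other 34 members had 2 or more, 105 transcripts in all. Of these, 24 had no count in the first transcript table, which was made in the same way as the gene table. The leading transcript, that with the highest mean expected count, held a median of 92.6% of its gene's counts, at least 90% in 20 of the 34 genes and under 50% in 4. Over all members, 22 leading transcripts had 1 exon and 54 had 2. The leading transcript was the same in both transcript tables in 33 of the 34 genes by counts, and in 24 by TPM, which weighs short transcripts more.

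Among the genes with most transcripts, E130307A14Rik had 13 annotated transcripts, and E130307A14Rik-213 held 50.7% and 44.7% of its counts, with 25.6% and 27.4% on E130307A14Rik-211. Gm46430 had 10, of which Gm46430-210 held 62.0% and 56.1%. 2310001H17Rik had 6, of which 2310001H17Rik-203 held 52.6% and 50.9%. In 5031425E22Rik, with 5, the single-exon 5031425E22Rik-201 held 70.5% and 72.0%, whereas other transcripts have up to 7 exons. Gm10419-204 held 50.4% and 45.2% of the counts of Gm10419, also with 5 transcripts. Genes with fewer transcripts could be as divided. 5830432E09Rik was divided over all 3 of its transcripts, with 42.7% and 38.7% on 5830432E09Rik-201 and 36.3% and 37.3% on 5830432E09Rik-203. Gm48678, with 2 transcripts, had 59.6% and 61.8% on the leading one, and Gm17435, also with 2, had 65.9% and 63.4%. These shares were close between the replicates.

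The exception was 6330403L08Rik, whose 2 single-exon transcripts are of 5521 and 5522 bases. 6330403L08Rik-201 held 19.5% of the counts in replicate 1 and 72.5% in replicate 2 in the first transcript table, and 56.0% and 5.4% in the second. The leading transcript thus changed between replicates in both tables and in opposite directions, while the gene as a whole stood at 4.73 and 4.47 TPM.

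**Figure D5:**
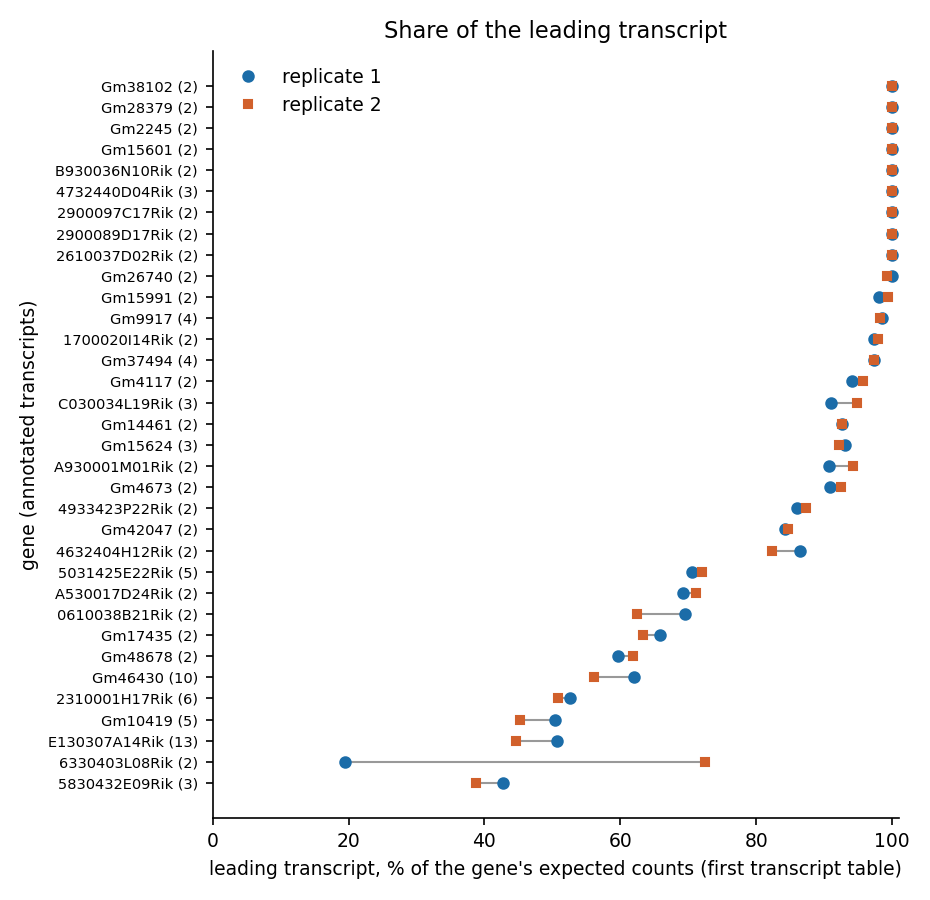
Share of a gene's expected counts on its leading transcript (horizontal, %) for the 34 members with 2 or more annotated transcripts (number in brackets), with a circle for replicate 1 and a square for replicate 2. The 2 marks lie close together in every row but that of 6330403L08Rik, at 19.5% and 72.5%.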

How the data were processed

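Total RNA of the chromatin fraction was sequenced in 2 replicates of 1 group. The authors deposited, per replicate, a gene table and a first transcript table, made from alignments to GENCODE M21 transcripts (mm10), and a second transcript table, made from reads and an index, per the notes deposited with the files. Their layouts are those of RSEM and kallisto. No source used here names the tools or versions. The deposited expected counts share out reads that match several genes, and the deposited TPM values correct them for effective length. The second table's deposited estimated counts were summed per gene. Expected counts were rounded only to estimate TMM factors (edgeR 4.0.16, R 4.3.3). Ratios used scaled counts plus 0.5.

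Members and gene lists were chosen with earlier results of these data known. Placement by host level, the count of fractional values and the list from the second table were added after values were seen. Named genes followed a rule: the highest by TPM, the extremes of each ratio and those near listed genes or coding starts. It also took those with most transcripts or a differing leading transcript, those that hold microRNA genes and those next to the count minimum. Gm2245, Gm15356, Gm26514, Gm26538 and Gm26905 were named outside it. So were 5830432E09Rik and the neighbouring members Gm26581, Gm38102, 4932422M17Rik, Gm16185 and Gm26767. Positions came from the GENCODE M21 annotation. Intervals cover counting error only. The ratio, placement and motif steps were tested on simulated data. DESeq2 1.42.0 size factors, library totals and other thresholds were alternatives. Python 3.11.15, numpy 2.4.6, pandas 2.3.3 and matplotlib 3.10.9 were used.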

Additional observations from a re-analysis of the deposited data

How the results depend on the processing

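No paired analysis was possible because the 2 libraries form 1 group. The number of members was 212 at a minimum of 100 counts, 46 at 400 counts and 479 in the second table, and 104 to 144 when 1 replicate was left out. The median level was 13.6 by posterior mean TPM, 13.0 by second-table TPM, 16.5 by counts per kilobase without ribosomal DNA copy genes, and 14.3 to 15.1 TPM with 1 replicate. The count of members that differed between replicates was 0 with TMM, DESeq2 and library total scaling, and 2 at 1.5-fold and 2 in the second table. For 1.5-fold and for the second table no background share was counted. Without the filter on low counts, 21.7% of 23049 genes differed by 2-fold. Differences between tables numbered 15 members at 1.5-fold, beside 4.53% of the 5960 background genes. They numbered 4 at 3-fold and 8 to 9 with 1 replicate, for which the background was not counted. By TPM 9 members and 7.10% of the background differed between tables by 2-fold. Starts beside an opposite-strand coding start numbered 27 within 5 kb and 25 within 1 kb when any annotated transcript start was used. For both settings the other candidates were not counted, so neither number shows whether the arrangement was more common among members. Overlap with a coding gene fell to 46 members for exons against exons (44.7%, against 23.0% of the other candidates). It fell to 10 for the same strand only (9.71%, against 2.10%). Members near a listed macrophage gene numbered 2 within 10 kb and 7 within 100 kb, distances at which the other candidates were not counted. The median intronic share was 0 for the same strand and 65.9% for the opposite strand alone. The leading transcript matched in 33 genes with either replicate left out. Changes of a threshold or distance follow from its width. For changes of the median level and between tables the cause was not tested. At 200 counts in both replicates, the 95% counting interval of a log2 ratio spans 0.28 on either side.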
